A study of Homo sapiens with 16 samples.

Results

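Return of wild-type APC was set directly against knockdown of beta-catenin in SW480 cells, a human colorectal cancer line whose own APC protein is truncated. The comparison used 8 of the 16 arrays of the series. In 4 of them (replicates A to D) the cells carried a stable vector for wild-type APC and received a control siRNA. In the other 4 (also A to D) the cells carried a stable empty vector and received siRNA against beta-catenin. The 4 control arrays, from empty-vector cells with the control siRNA (named siGFP in the titles), took no part in the contrast and are used only to show where a level started. The last 4 arrays, from empty-vector cells given siRNA against TAZ, served only to estimate the spread. All cells were grown in RPMI with serum, insulin, hydrocortisone and 1-thioglycerol and transfected with a lipid reagent. The labels do not say whether the APC line is 1 clone or a pool, how long after transfection the cells were harvested, or how many siRNA sequences were used. They call the samples biological replicates without naming separate cultures, so p-values measure the spread between these arrays. The compared arms differ in the vector as well as in the siRNA, and a difference between them can arise in either arm.

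APC is a scaffold of the cytoplasmic destruction complex, in which beta-catenin is phosphorylated and marked for degradation. Beta-catenin that escapes enters the nucleus and activates TCF/LEF target genes. APC also binds microtubules and regulators of the actin cytoskeleton, and the destruction complex can hold the Hippo pathway effectors YAP and TAZ. The series was collected to study TAZ as a mediator of Wnt signalling. The contrast described here addresses what differs between cells that carry the wild-type APC vector and cells given siRNA against beta-catenin. Whether the vector repaired the complex was not tested.

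Expression was measured on Affymetrix U133 Plus 2.0 arrays as log2 values normalised by RMA. Array medians lay between 5.06 and 5.12 in all 16 arrays, and the median probe set level was 5.09, used below as the line between dim and bright. Of 19775 genes, 4011 were higher and 4297 lower with APC than with beta-catenin siRNA at a limma adjusted p under 0.05. That is 42.0% of all genes tested, 20.3% higher and 21.7% lower, with a median log2 difference over all genes of 0.01. The 4 APC and 4 siRNA values did not overlap for 39.9% of genes. Among the called genes, 370 were at least 2-fold higher (1.87% of all tested) and 643 at least 2-fold lower (3.25%), while 80 and 108 passed 4-fold. With replicates A and B alone 6360 genes were called, and with C and D alone 7488. The excess of 3' over 5' signal for ACTB, which grows as RNA degrades, was 2.08 ± 0.32 (SD, n = 4) with APC and 2.30 ± 0.24 (SD, n = 4) with beta-catenin siRNA (two-sided exact permutation p = 0.3143). With so many genes called, a share of a gene group near 42.0% says nothing particular about that group. Bright genes were called more often, 8033 of 12828 when fitted alone. That is the nearer background for a list with few dim members.

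**Figure D1:**
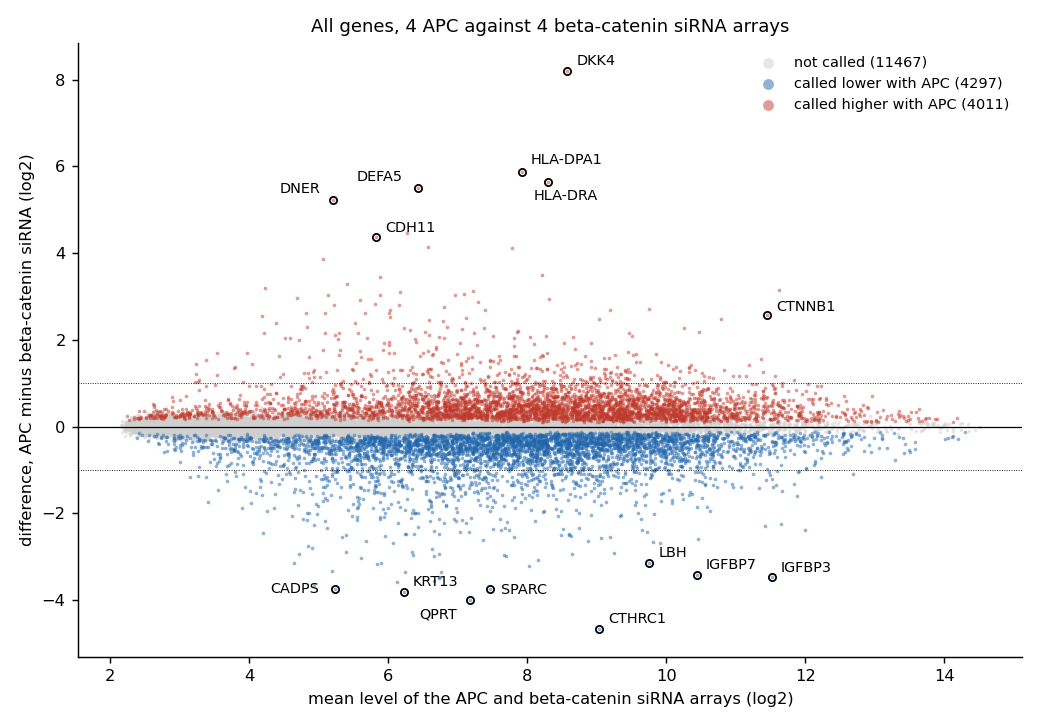
Each point is 1 of 19775 genes, with its mean log2 level over the 8 arrays on the horizontal axis and the log2 difference of APC minus beta-catenin siRNA on the vertical axis. Red points (4011) were called higher and blue points (4297) lower, grey points were not called, and dotted lines mark 2-fold. DKK4 stands alone at 8.21, and CTHRC1 lies lowest at -4.66.

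The targeted transcript followed the labels. CTNNB1, which encodes beta-catenin, read 9.99, 9.94, 10.43 and 10.30 (replicates A to D) after its siRNA and 12.59, 12.69, 12.84 and 12.88 with APC, against 12.97 to 13.27 in the controls. The siRNA arrays were the low ones and did not overlap the others. CTNNB1 was 2.58 higher on the log2 scale with APC than with siRNA (SE 0.11, adjusted p = 6.44e-12, exact permutation p = 0.0286, the smallest that 4 against 4 arrays allow), and the siRNA left 12.9% of the control level. A second probe set gave a difference of 2.71, and the last one gave -0.18 and missed the threshold. With APC the CTNNB1 mean was 12.75 against 13.12 in controls, and the protein was not measured here.

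The APC gene itself gave a mixed reading. Its brightest probe set read 8.33, 8.05, 8.43 and 8.41 with the APC vector and 7.96, 7.94, 8.31 and 8.25 with beta-catenin siRNA. These values overlapped, and the difference of 0.19 missed the threshold (SE 0.14, adjusted p = 0.303). Other APC probe sets differed by 0.79, 0.32 and 1.28 and passed, and one at -0.01 did not. Whether each probe set lies in the sequence that the vector carries was not tested. Of the Hippo effectors, WWTR1, which encodes TAZ, read 10.90 to 11.06 with APC and 10.93 to 11.05 with beta-catenin siRNA, a difference of 0.03 that missed the threshold (SE 0.07), and YAP1 was 0.56 higher with APC (SE 0.08, adjusted p = 2.57e-05). On these probe sets both arms lay above the WWTR1 control mean of 10.28. For YAP1 both lay below the control mean of 11.36, at 10.6 with APC and 10.03 with siRNA.

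The widest difference on the array belonged to DKK4, a secreted Wnt antagonist that is itself a beta-catenin/TCF target. DKK4 read 12.85, 12.79, 12.55 and 12.53 in the APC arrays and 4.80, 4.39, 4.07 and 4.61 in the beta-catenin siRNA arrays. The controls lay between, at 6.14 to 6.23, so DKK4 stood above control with APC and below it with siRNA. The difference was 8.21 (SE 0.12, adjusted p = 2.46e-17). The siRNA mean of 4.47 lies below the line for bright signal, so the size of this difference depends on the background signal there, as for every gene below that was dim in 1 arm or in both. In these bulk samples a change in the fraction of cells that express a gene and a change per cell cannot be told apart.

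CTHRC1, a secreted protein of the extracellular matrix, was the gene furthest lower with APC. It read 6.43, 6.62, 6.87 and 6.87 with APC and 11.22, 11.37, 11.44 and 11.39 with beta-catenin siRNA. The siRNA arrays stayed beside the controls, at 11.42 to 11.73, and only the APC arrays were low. The difference was -4.66 (SE 0.09, adjusted p = 1.16e-15). SPARC, a collagen-binding matrix glycoprotein, showed the other arrangement. It read 5.34, 5.88, 5.45 and 5.72 with APC and 8.99, 9.28, 9.52 and 9.57 with beta-catenin siRNA, while controls read 6.04 to 6.13. Here the siRNA arrays were the high ones, and the difference of -3.74 (SE 0.13, adjusted p = 3.95e-13) came with APC arrays somewhat below control. A second SPARC probe set gave -4.22.

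The position of the control level separated the strongest differences into kinds. Among the 2-fold genes, 973 were bright in at least 1 arm and had no overlap between arms, 356 of them higher and 617 lower with APC. Of the 356, 52 had a siRNA mean within 0.25 of control, 85 had an APC mean within 0.25 of control, and in 46 the control lay between the arms and at least 0.5 from each. Of the 617, the same counts were 140, 63 and 147. In 53 of the higher and 60 of the lower genes both arms had moved at least 0.5 to the same side of control. These counts describe means that share the same 4 control arrays, and no test was made on them.

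Genes in which APC cells stood apart and siRNA cells kept the control level were led by DNER, a Notch-binding transmembrane protein. DNER read 7.65, 7.75, 8.13 and 7.77 with APC and 2.52 to 2.77 with beta-catenin siRNA, beside 2.61 to 3.04 in controls, a difference of 5.22 (SE 0.11). AFAP1-AS1, a long non-coding RNA, was 4.47 higher, ALCAM, an adhesion molecule, 3.45 higher, and SEMA3C, a secreted guidance cue, 3.20 higher. BCL11B, a zinc-finger transcription factor, and ARHGAP24, a Rac-directed GTPase-activating protein, were 3.04 and 2.97 higher. All of these were dim in the siRNA and control arrays or close to the median level there, and bright with APC. In the opposite direction, KRT13, a keratin of stratified epithelia, read 4.05 to 4.66 with APC and 8.06 to 8.22 with siRNA, a difference of -3.80 (SE 0.10). IGFBP7, a secreted IGF-binding protein, read 8.65, 8.81, 8.66 and 8.80 with APC and 12.09 to 12.19 with siRNA (-3.41, SE 0.06). LBH, a transcription cofactor, TSPAN2, a tetraspanin, and RAI2 were lower by the values -3.13, -2.96 and -2.94. MAGEC2, a cancer-testis antigen, stood at -2.98, and its only other probe set was dim in all groups. DEFA5, an antimicrobial peptide of Paneth cells, belonged near this kind: it read 9.07 to 9.28 with APC, 3.45 to 4.00 with siRNA and 3.86 to 4.35 in controls, a difference of 5.50 (SE 0.13). CDH11, a mesenchymal cadherin, read 7.90 to 8.15 with APC and 3.48 to 3.84 with siRNA (4.37, SE 0.12).

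**Figure D2:**
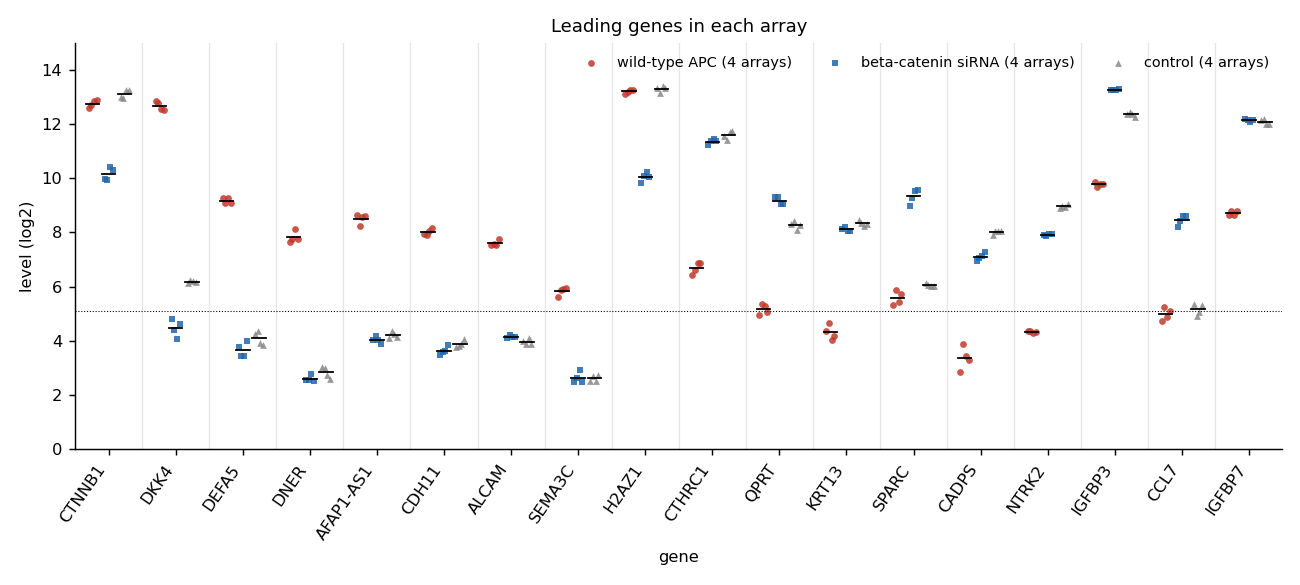
Each point is 1 array, with genes on the horizontal axis and the log2 level on the vertical axis; red circles are APC, blue squares beta-catenin siRNA and grey triangles control cells, 4 arrays each, black bars are means, and the dotted line is the median level of 5.09. SPARC and CCL7 are high only in the siRNA arrays among the 3 groups drawn, CTHRC1 and IGFBP7 are low only with APC, and DKK4 parts in both directions from control.

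Other genes stayed at the control level with APC and moved with beta-catenin siRNA. H2AZ1, a variant histone H2A, read 13.11, 13.19, 13.27 and 13.25 with APC and 9.83, 10.10, 10.24 and 10.04 with siRNA, with controls at 13.14 to 13.40. The siRNA arrays alone were low, and the difference was 3.15 (SE 0.08). GZMB (2.92), C4orf46 (2.45), the kinase gene UHMK1 (2.28) and HNRNPA0 (2.18) had the same arrangement of levels. So did CPSF3, the endonuclease that cleaves pre-mRNA 3' ends (2.15), and the brightest probe set of SPCS3, a signal peptidase subunit (2.68). The other SPCS3 probe sets differed by 0.67 and -0.01. The latter read 8.43 with APC, 8.44 with siRNA and 8.70 in controls and missed the threshold. STMN1, a microtubule-destabilising protein, stood at 3.50 on its brightest probe set (SE 0.12), and its only other probe set was dim in all groups (3.09 with APC, 3.40 with siRNA and 3.68 in controls). Genes high only in the siRNA arm among these 3 groups were led by CCL7, a monocyte chemokine. It read 4.75 to 5.26 with APC and 8.22 to 8.62 with siRNA, a difference of -3.46 (SE 0.14) with controls at 4.93 to 5.37. The TNF family ligands TNFSF9 and CD70 stood at -1.94 and -1.81, the collagen chain COL6A3 at -1.91, ENPP5 at -1.83, RASSF4 at -1.74, TMEM176B at -1.72 and LOC107984282 at -2.21.

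A further set moved away from control in opposite directions in the arms. QPRT, an enzyme of NAD synthesis from tryptophan, read 4.96, 5.36, 5.30 and 5.08 with APC and 9.30, 9.30, 9.05 and 9.05 with siRNA, around controls of 8.09 to 8.41. APC arrays were low and siRNA arrays high, with a difference of -4.00 (SE 0.10). IGFBP3, a secreted IGF-binding protein, read 9.86, 9.68, 9.78 and 9.79 with APC and 13.24, 13.24, 13.24 and 13.28 with siRNA around controls of 12.27 to 12.45 (-3.47, SE 0.05). AUTS2, SYT13 and TMEM117 stood at -3.56, -3.49 and -3.36. On the high side, besides DKK4, GPX2, a gastrointestinal glutathione peroxidase, was 3.10 higher with APC, GNAI1, an inhibitory G protein subunit, 3.04, KCTD12 2.84 and EDN3, a vasoactive peptide, 2.31. For KCTD12 only the means parted on the siRNA side, as its siRNA arrays (4.05 to 4.66) overlapped the controls (4.25 to 5.46). In 3 further leading genes both arms lay below control, by more with APC: CADPS (-3.74), NTRK2, the receptor for BDNF (-3.59), and TNNC1, a troponin (-3.36). GALC, a lysosomal galactosylceramidase, stood at -3.65, FAM133A at -3.33, and the transcript VHRT was 3.30 higher.

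The genes of MHC class II antigen presentation were higher with APC as a group. Of 18 analysed, 14 were higher, 2 were lower and 2 were not called, with a median difference of 1.90 against 0.01 over all genes, and 10 of the 14 were at least 2-fold higher. Over all genes 20.3% were called higher and 1.87% at least 2-fold higher. The median was 0.85 with the mean of a gene's probe sets and 0.86 without probe sets marked as shared between transcripts. CIITA is the transactivator that switches these genes on; it is recruited to a conserved promoter module in which the X box binds the RFX complex and the Y box, an inverted CCAAT, binds NF-Y. Of the 18 genes, 13 had a promoter window in the RefSeq table (build GRCh38.p14). The motifs AGNNAC followed at once by NGATG for the X box and ATTGG for the Y box were searched on both strands in the 150 bases before each start; matches of one did not overlap matches of the other in the windows shown. The X box letters were present in 0.379% of 35116 promoter windows of that length, ATTGG in 23.5%, and both in 0.0968%. Both were present in 4 class II genes, and these 4 windows are shown because each holds both motifs and each gene was higher with APC. They run 5' to 3' on the gene's strand, with matches in capitals.

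HLA-DRB1: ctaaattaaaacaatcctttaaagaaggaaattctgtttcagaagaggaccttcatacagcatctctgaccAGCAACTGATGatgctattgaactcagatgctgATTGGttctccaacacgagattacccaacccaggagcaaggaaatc
HLA-DQB1: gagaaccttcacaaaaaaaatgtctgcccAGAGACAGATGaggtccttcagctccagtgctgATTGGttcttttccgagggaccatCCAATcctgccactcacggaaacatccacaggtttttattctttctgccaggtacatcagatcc
HLA-DMA: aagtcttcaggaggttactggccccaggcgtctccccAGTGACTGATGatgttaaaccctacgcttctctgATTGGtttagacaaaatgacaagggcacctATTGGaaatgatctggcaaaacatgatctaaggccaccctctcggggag
HLA-DMB: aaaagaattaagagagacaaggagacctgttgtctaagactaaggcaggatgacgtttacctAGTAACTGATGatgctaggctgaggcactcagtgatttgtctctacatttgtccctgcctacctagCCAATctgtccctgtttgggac

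All 4 lie on the minus strand of chromosome 6: HLA-DRB1 at chr6:32589849-32589998, HLA-DQB1 at chr6:32666658-32666807, HLA-DMA at chr6:32953098-32953247 and HLA-DMB at chr6:32941029-32941178. Counted back from the start, the X box letters began at -79 in HLA-DRB1, -121 in HLA-DQB1, -113 in HLA-DMA and -88 in HLA-DMB. The first ATTGG lay at -46, -88 and -79 in HLA-DRB1, HLA-DQB1 and HLA-DMA, while HLA-DMB had its only match in the other orientation, as CCAAT at -22, and further from the X box letters than in the other genes. Other list members did not sort by motif. CD74, HLA-DPB1 and HLA-DQA1, all at least 2-fold higher with APC, held ATTGG or CCAAT without the exact X box letters, and so did HLA-DOA, HLA-DOB and RFX5, which differed by 0.12, 0.33 and 0.30. Both windows of HLA-DPA1, whose difference was the largest of the group at 5.88, held neither motif. A match is a description of letters and no measure of binding.

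The antigen-presenting chains had the largest differences of the group. HLA-DPA1, the alpha chain of HLA-DP, read 10.84, 10.84, 11.01 and 10.76 with APC and 4.93, 5.03, 4.98 and 5.01 with beta-catenin siRNA, beside 4.17 to 4.62 in controls. APC arrays stood alone, and the difference was 5.88 (SE 0.09, adjusted p = 4.55e-17), with 4.77 and 2.80 from its other probe sets. HLA-DRA, the alpha chain of HLA-DR, read 11.15, 11.13, 11.07 and 11.13 with APC and 5.25 to 5.58 with siRNA, beside 4.60 to 5.11 in controls (5.64, SE 0.09). HLA-DPB1, HLA-DRB1 and HLA-DQA1 were 4.15, 4.12 and 3.87 higher, and HLA-DQB1 was 1.93 higher from a brighter siRNA level of 7.88 to 8.09. Probe sets for HLA-DRB genes can capture near-identical paralogs, so the split between HLA-DRB1 and HLA-DRB4 (0.43 higher, and dim in all arrays) is uncertain.

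The chaperones and the transactivator moved the same way. CD74, the invariant chain, read 10.41, 10.39, 10.28 and 10.01 with APC and 7.89, 8.02, 7.61 and 7.64 with siRNA (2.48, SE 0.12). HLA-DMB and HLA-DMA, which form the peptide exchange factor, were 2.68 and 2.10 higher, with no overlap. CIITA read 6.71, 7.06, 6.95 and 7.09 with APC and 4.88 to 5.25 with siRNA (1.88, SE 0.11), above 4.46 to 4.65 in controls; neither of its 2 other probe sets was called in the same direction. The subunits of the RFX complex differed far less: RFX5 was 0.30 higher, RFXAP 0.31 higher with overlapping values, and RFXANK lower at -0.14. The HLA-DM inhibitors were HLA-DOB, 0.33 higher with overlap, and HLA-DOA, at 0.12 and not called. Of the proteases, LGMN was lower (-0.65) and CTSS, at 0.05, was not called. In the siRNA arm the class II genes had a median of 0.36 above control, and with APC 2.41. Markers of leukocytes, the usual class II-bearing cells, did not accompany them: of 17 markers none was higher with APC by limma (0 at an unadjusted p under 0.05), 11 were dim in both arms, and the list's mean level was 4.41 to 4.54 across APC arrays and 4.63 to 4.71 across siRNA arrays.

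**Figure D3:**
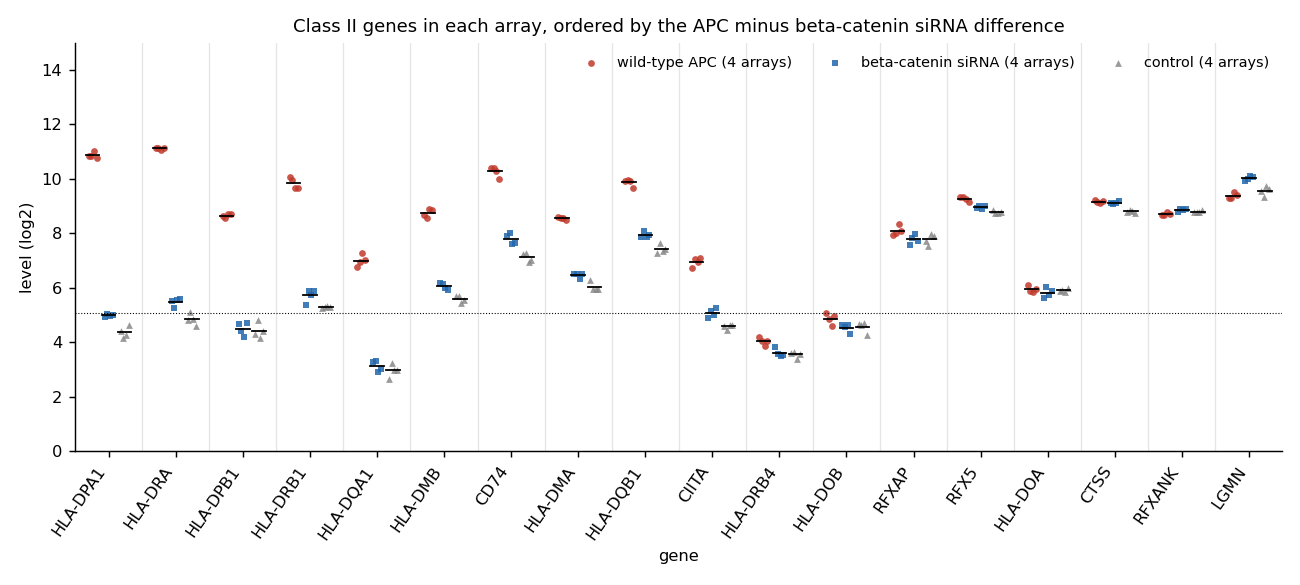
Log2 levels of the 18 class II genes (vertical axis) in each array, ordered from the most to the least positive difference along the horizontal axis; red circles are APC, blue squares beta-catenin siRNA and grey triangles control arrays, 4 each, bars are means and the dotted line is the median level of 5.09. From HLA-DPA1 (5.88) to CIITA (1.88) the APC points lie clear of both other groups, while for HLA-DOA, CTSS and RFXANK the APC and siRNA points overlap.

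The other antigen presentation and interferon genes did not share that shift. Of 20 class I and antigen processing genes, 7 were higher and 3 lower (median 0.10), none by 2-fold. The peptide transporter TAP2 and the immunoproteasome subunits PSMB8 and PSMB9 were 0.68, 0.65 and 0.49 higher, the peptidase ERAP2 0.46 higher, and TAPBPL lower at -0.64. Class I genes stood above control in both arms, by a median of 0.71 with APC and 0.62 with siRNA. Of 40 interferon response genes, 8 were higher and 16 lower (median -0.09). Against control their median was 0.48 with APC and 0.54 with siRNA, so this list too stood above control in both arms. TRIM22 read 4.27 to 4.63 with APC and 6.28 to 6.45 with siRNA, above controls of 3.40 to 3.85 in both arms (-1.92). IFIT1 and IRF9 were lower at -1.42 and -1.18, and SAMD9 and GBP1 higher by 1.25 and 1.15. The members thus parted in both directions.

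Of 32 Wnt/beta-catenin target genes, 15 were higher and 7 lower with APC (median 0.10), and 8 of the 15 passed 2-fold. PROX1, a homeobox transcription factor, read 8.45, 8.70, 8.72 and 8.57 with APC and 5.42, 5.80, 5.66 and 5.37 with siRNA, beside 8.09 to 8.31 in controls (3.05, SE 0.10). FGF20, a growth factor, was 2.16 higher, SP5, a Wnt-induced repressor, 1.60, ASCL2, a regulator of intestinal stem cells, 1.38, and JAG1, a Notch ligand, 1.27. In FGF20 and SP5 both arms lay below control, further with siRNA, and ASCL2 with APC kept near control. The feedback genes ZNRF3 and AXIN2 were 0.48 and 0.30 higher. AXIN2 read 10.15 to 10.33 with APC, 9.85 to 10.04 with siRNA and 11.53 to 11.71 in controls, so both arms lay well below control. Chosen after their values were seen, CCND1 at -0.09, RNF43 at 0.05 and APCDD1 at -0.05 did not pass between the arms, while each stood below control in both, and MYC was 0.60 higher. The Wnt target median lay at -0.49 against control with APC and at -0.87 with siRNA.

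Lower with APC than with siRNA among Wnt targets were DKK1, a secreted LRP antagonist, and PLAUR, the urokinase receptor. PLAUR averaged 9.18 with APC, 10.36 with siRNA and 9.19 in controls (-1.18), so the siRNA arrays were the high ones. DKK1 read 7.11, 7.34, 7.52 and 7.33 with APC and 8.84, 8.67, 8.92 and 8.88 with siRNA, beside 10.12 to 10.43 in controls (-1.50, SE 0.08). DKK1 and DKK4, of the same family, thus differed in opposite directions. Of 15 secreted antagonists 2 were higher (DKK4 and, by 0.22 at a dim level, SFRP1) and 4 lower: DKK3 at -2.50, DKK1, the IGF-binding IGFBP4 at -1.08 and, with overlapping values, SOSTDC1 at -0.41. The other 9 were not called: SFRP2, SFRP4, SFRP5, FRZB, WIF1, CER1, DKK2, SOST and NOTUM lay between -0.27 and 0.22. The share called among the 15 was 40.0%, near the 42.0% of all genes. Of 35 Wnt ligands and receptors, 7 were higher and 13 lower (median -0.08). The receptor FZD10 was lower at -1.88, the ligands WNT10A, WNT6 and WNT11 at -1.52, -1.35 and -1.35, and LGR6, an R-spondin receptor, was 1.01 higher.

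**Figure D4:**
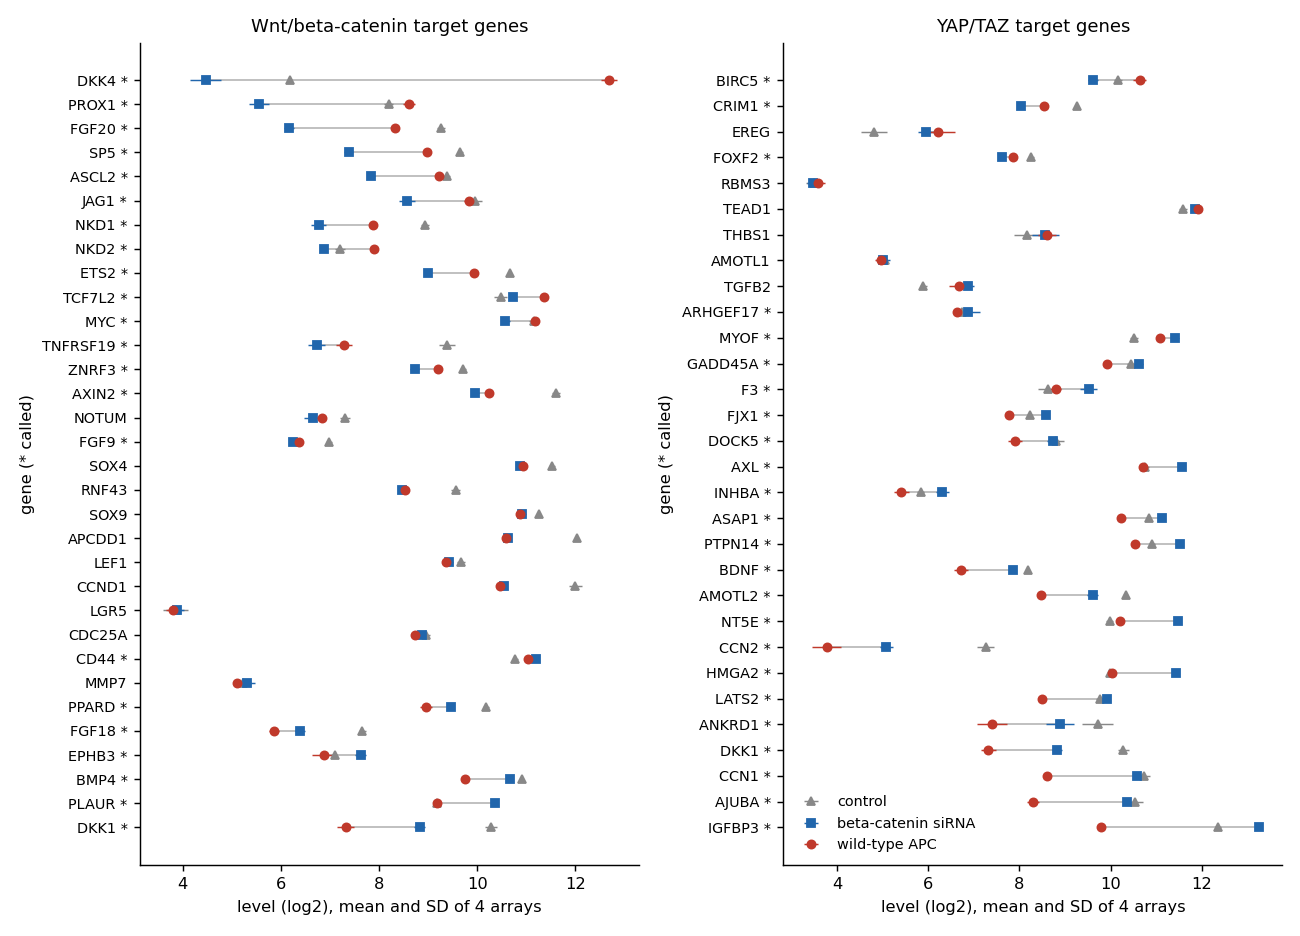
Mean log2 level with SD of 4 arrays (horizontal axis) for 32 Wnt/beta-catenin targets on the left and 30 YAP/TAZ targets on the right, with genes ordered on the vertical axis by the difference between arms; red circles are APC, blue squares beta-catenin siRNA, grey triangles control, and stars mark called genes. Among Wnt targets 15 lie higher and 7 lower with APC, and among YAP/TAZ targets 3 lie higher and 21 lower.

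The machinery that controls beta-catenin differed modestly. Of 34 destruction complex and nuclear cofactor genes, 7 were higher and 10 lower (median -0.06), and none except CTNNB1 differed by 2-fold. AXIN1 (0.05), APC2 (0.00), GSK3B (0.13), GSK3A (0.24), BTRC (-0.13), AMER1 (-0.14), TNKS (-0.03) and TNKS2 (-0.15) were not called. CSNK1A1, a casein kinase of the complex, was 0.90 higher on its brightest probe set; of 12 others 4 were called in the same direction and 3, all of lower signal, in the opposite one, and CSNK1E was 0.60 higher. The other destruction complex ubiquitin ligase gene, FBXW11, stood at -0.16, CSNK1D at -0.10 and not called, and DVL2 and DVL3, which relay Wnt signals, at -0.21 and -0.84, whereas DVL1 (-0.17) missed the threshold (limma adjusted p = 0.0521, and 0.00634 with the replicate letter as a block). Among nuclear partners, TCF7L2, the main TCF of the colon, was 0.66 higher, TLE4 0.95 and TLE3 0.20 higher, and TCF7L1, TLE1, TLE2, BCL9, BCL9L, CHD8 and the inhibitor CTNNBIP1 were lower, from -0.21 to -0.97. LEF1, PYGO1, PYGO2, CBY1, TBL1X and TBL1XR1 were not called and lay between -0.07 and 0.15.

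YAP/TAZ target genes lay lower with APC in most cases. Of 30 analysed, 21 were lower, 3 higher and 6 not called (80.0% called against 42.0% of all genes), with a median of -0.84. Only 3 of the 30 were dim in both arms, and of 12828 bright genes fitted alone 8033 were called. Beside IGFBP3, AJUBA, a LIM protein that restrains Hippo kinases, read 8.15 to 8.44 with APC and 10.27 to 10.47 with siRNA, next to controls of 10.31 to 10.68 (-2.06, SE 0.08). CCN1, a matricellular protein, read 8.61, 8.53, 8.63 and 8.62 with APC and 10.52, 10.51, 10.70 and 10.60 with siRNA, next to controls of 10.57 to 10.83 (-1.98, SE 0.06). In both genes APC arrays alone lay low. ANKRD1, a nuclear cofactor, stood at -1.48, and there A and B lay below C and D in every group (7.16, 7.09, 7.61 and 7.75 with APC). CCN2, named after its values were seen, was lower at -1.31, with 3.77 ± 0.32 (SD, n = 4) against 5.08 ± 0.15 (SD, n = 4). Both CCN2 means were dim and far below a control mean of 7.26, so the size of this difference depends on background signal. BIRC5, also a mitotic gene, was the highest of the list at 1.03. Against control the list's median was -0.41 with APC and 0.16 with siRNA. Of 26 Hippo pathway and TEAD genes, 3 were higher and 10 lower (median -0.13). The kinase LATS2 stood at -1.42, its angiomotin partner AMOTL2 at -1.14, PTPN14 at -0.99, FRMD6 at -0.68 and the scaffold SAV1 at -0.87, the last with 2 other probe sets called in the same direction and a less bright one in the opposite.

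Genes of the cell surface and matrix were called lower with APC more often than higher, though the list medians were small. Over all genes 21.7% were called lower and 20.3% higher. Whether these lists exceeded that background was not tested. Against control the matrix list had a median of -0.02 with APC and 0.29 with siRNA. The protease and inhibitor list stood at 0.07 and 0.25, and the integrin list at -0.03 and 0.18. By list medians the siRNA arm thus lay further from control. Of 54 extracellular matrix genes 25 were lower and 4 higher (median -0.13), and 14 of the 25 by 2-fold, with 26 members dim in both arms. After CTHRC1, SPARC and COL6A3, the transmembrane collagen COL13A1 read 7.38 to 7.54 with APC and 9.27 to 9.47 with siRNA (-1.90). Of 40 secreted protease and inhibitor genes 19 were lower and 3 higher (median -0.22, from -0.37 among bright genes to -0.11 with the mean of probe sets), among them the cystatin CST6 (-2.22), SERPINA1 (-1.38), TIMP2 (-1.28) and TIMP3 (-1.22). Of 36 integrin and focal adhesion genes 18 were lower and 2 higher (median -0.19). ITGA7, a laminin receptor chain, stood at -2.20, ITGA3 and ITGA5 each at -1.60, NEDD9 at -0.96 and ITGB5 at -0.95. ITGA5 read 6.04 to 6.21 with APC, 7.61 to 7.89 with siRNA and 6.52 to 6.77 in controls, so its arms parted on either side of control.

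Epithelial and mesenchymal genes moved both ways within their lists. Of 33 mesenchymal and EMT genes 17 were lower and 4 higher (median -0.29). PRRX1, a mesenchymal homeobox factor, was lower at -2.55, whereas CDH11, LOX, a collagen-crosslinking enzyme (2.38), and NNMT, nicotinamide N-methyltransferase (2.08), were higher. Of 33 junction and keratin genes 10 were higher and 13 lower (median -0.06). EHF, an epithelial ETS factor, stood at 12.03 ± 0.03 (SD, n = 4) with APC and read 9.47, 9.52, 9.57 and 9.64 with siRNA and 8.47 to 8.65 in controls (2.48, SE 0.05). EHF was above control in both arms and further with APC, and all 5 of its other probe sets were called the same way. The tight junction genes MARVELD3 and MARVELD2 were 1.80 and 1.66 higher, KRT7 1.54 higher, and CLDN1 lower, at 8.16 to 8.37 against 9.26 to 9.34. Of 25 adherens junction genes 7 were higher and 7 lower (median 0.03), with NECTIN3, CDH3 and DSC2 higher by 1.31, 0.88 and 0.84 and LIMA1 lower at -0.84.

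The microtubule and polarity partners of APC split as well: of 43, 12 were higher and 17 lower (median -0.05). SCRIB, a basolateral polarity scaffold, stood at 9.14 ± 0.11 (SD, n = 4) with APC and read 7.34 to 7.50 with siRNA and 9.01 to 9.21 in controls (1.71, SE 0.06), so the siRNA arrays alone were low. MAP1B, which stabilises microtubules, and the tubulins TUBA1A and TUBB2A were lower with APC at -1.47, -1.40 and -1.20.

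Differentiation lists were mostly quiet. Of 32 enterocyte genes 4 were higher and 3 lower, and 23 were dim in both arms. CA2, SLC5A1 and CDX2 were 0.85, 0.54 and 0.53 higher, and MUC13 and VIL1 lower at -1.52 and -1.42. CA2 was dim in both arms, at 3.71 with APC and 2.86 with siRNA. Of 30 goblet, Paneth, enteroendocrine and tuft cell genes 6 were higher and 4 lower. After DEFA5, MUCL1 was 2.77 higher, DCLK1, a tuft cell kinase, 0.92, GFI1 0.83 and DEFA6, the other Paneth defensin, 0.68. MUCL1 and DCLK1 lay below control in both arms, while DEFA5 and DEFA6 with APC lay above it. Of 18 stem cell genes 5 were higher and 2 lower, with ALCAM, ASCL2, TNFRSF19 (0.56) and ZNRF3 higher, LRIG1 lower at -0.58, and LGR5, named after its value was seen, at -0.10 and dim.

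Proliferation genes were higher with APC than with beta-catenin siRNA almost throughout. Over all genes 20.3% were called higher, and of 12828 bright genes fitted alone 8033 were called in either direction. No member of the replication, mitosis and ribosome lists was dim in both arms. The lists were chosen with earlier results of these data known, and whether they exceeded that background was not tested. Of 41 DNA replication and G1/S genes 39 were higher and none lower by limma (1 lower at an unadjusted p under 0.05), with differences of 0.14 to 1.64 and a median of 0.65. MCM10, a replication initiation factor, read 9.05, 8.96, 9.16 and 8.99 with APC and 7.14, 7.39, 7.58 and 7.48 with siRNA, beside 8.49 to 8.75 in controls (1.64, SE 0.09). GINS1 and GINS2, helicase subunits, were each 1.5 higher, TK1, thymidine kinase, 1.22 and ORC1 1.14. Of 40 mitosis and G2/M genes 34 were higher and 1 lower (median 0.43), led by BIRC5 (1.03), the motor KIF11 (0.93), and BUB1B (0.87), MAD2L1 (0.80) and PRC1 (0.76). All 26 genes for ribosome biogenesis in the MYC programme were higher, by 0.18 to 1.08 (median 0.60). ODC1, the first enzyme of polyamine synthesis, read 12.32 to 12.43 with APC, 11.28 to 11.32 with siRNA and 12.50 to 12.55 in controls (1.08, SE 0.04), and NOLC1, LYAR, WDR12 and MRTO4 were 0.99, 0.92, 0.87 and 0.84 higher. By list medians the siRNA arm lay further from control: the replication list's median stood at 0.15 above control with APC and at -0.55 with siRNA, the mitosis list at 0.06 and -0.38, and the ribosome list at 0.14 and -0.51. Single genes varied: TK1 stood 0.88 above control with APC and at -0.35 with siRNA, GINS2 at 0.79 and -0.71, and GINS1 at 0.12 and -1.38. Among 24 inhibitors of cyclin-dependent kinases and targets of p53, 14 were lower and 4 higher (median -0.29, or -0.17 with the mean of probe sets): GADD45B stood at -1.88, CDKN1B at -1.23, GADD45A at -0.71 and CDKN1A was 0.75 higher. BTG1 stood at -0.79, with -0.92 on its other bright probe set.

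**Figure D5:**
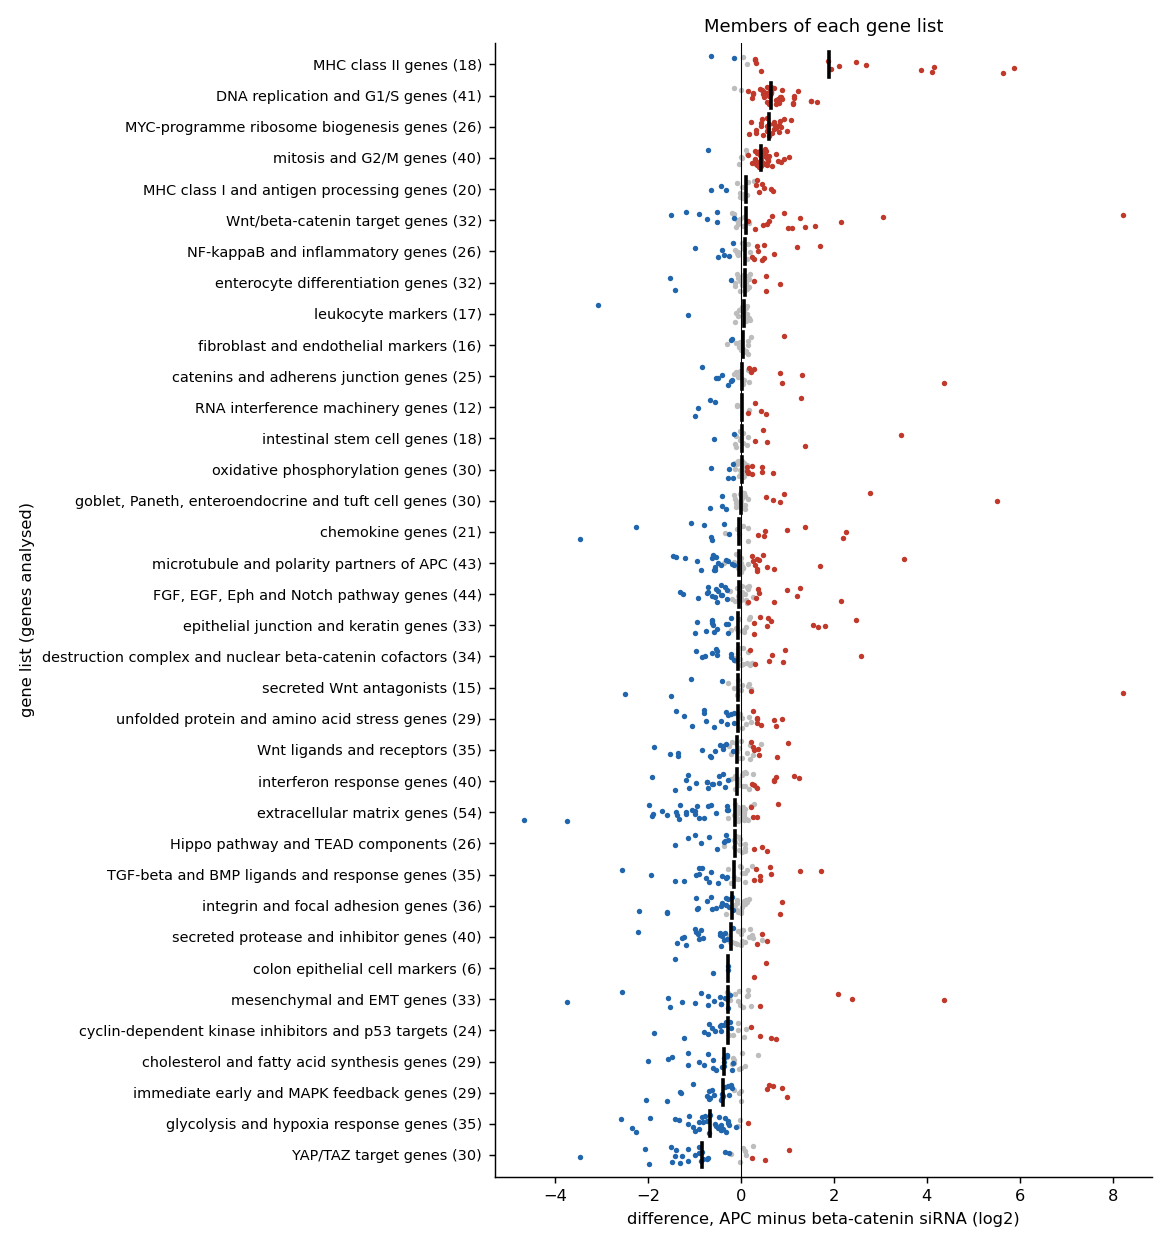
Every point is 1 gene of a list (vertical axis, with the number analysed), placed on the horizontal axis by its log2 difference of APC minus beta-catenin siRNA; red points were called higher, blue lower and grey not called, and black bars are list medians. Medians run from -0.84 for YAP/TAZ targets to 1.90 for class II genes, beside 0.01 over all 19775 genes.

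Glycolysis and lipid synthesis genes were mostly lower with APC. Over all genes 21.7% were called lower, and bright genes were called more often than dim ones. Of 35 glycolysis and hypoxia response genes 32 were lower with APC and 1 higher (median -0.67, or -0.44 with the mean of probe sets). NDRG1, a hypoxia-induced gene, read 9.20, 9.19, 9.11 and 9.17 with APC and 11.76, 11.80, 11.74 and 11.71 with siRNA, beside 11.29 to 11.48 in controls (-2.58, SE 0.05). The regulator PFKFB4 and the glucose transporter SLC2A3 stood at -2.34 and -2.25, the oxygen sensor EGLN3 at -1.96 and the mitophagy receptor BNIP3L at -1.42. The list's median was -0.19 against control with APC and 0.35 with siRNA, so the arms lay on either side. Of 29 cholesterol and fatty acid synthesis genes 19 were lower and none higher by limma (1 higher at an unadjusted p under 0.05), with a median of -0.36. INSIG1, a sterol sensor, read 8.72 to 9.01 with APC and 10.69 to 10.95 with siRNA around controls of 9.99 to 10.39 (-2.01), and STARD4, SCD, MSMO1 and NR1H3 stood at -1.56, -1.48, -1.15 and -1.14. Of 30 oxidative phosphorylation genes 9 were higher and 5 lower (median 0.03, 46.7% called), and none was dim in both arms. NDUFB10, NDUFS3 and CYC1 were 0.69, 0.46 and 0.46 higher and UQCRC1 and NDUFA1 lower at -0.64 and -0.28. Of 29 unfolded protein and amino acid stress genes 8 were higher and 14 lower (median -0.07), with SLC7A5, an amino acid transporter, 0.89 higher and VLDLR (-1.39), DNAJB9 (-1.22), DDIT3 (-1.06) and EDEM1 (-0.80) lower.

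Signalling and inflammatory lists were mixed, apart from the immediate early genes. The shares over all genes were 20.3% called higher and 21.7% called lower. Of 29 immediate early and MAPK feedback genes 20 were lower with APC and 5 higher (median -0.39, or -0.25 with the mean of probe sets). FOSL2 stood at -2.04, FOS at -1.60, the phosphatase DUSP6, which read 11.09 to 11.23 with APC and 12.35 to 12.64 with siRNA, at -1.32, DUSP5 at -1.30 and KLF6 at -1.03. Of 35 TGF-beta and BMP genes 8 were higher and 15 lower (median -0.15). ID1 and ID2, inhibitors of bHLH factors, went opposite ways: ID1 read 10.23 to 10.44 with APC and 8.51 to 8.74 with siRNA (1.72), and ID2 7.80 to 8.16 with APC and 10.43 to 10.54 with siRNA (-2.55). BAMBI, a decoy receptor, was 1.28 higher, LTBP2 and TGFBR3 lower at -1.94 and -1.42. Of 44 FGF, EGF, Eph and Notch genes 9 were higher and 17 lower (median -0.05), with the EGFR ligand BTC 1.20 higher and EFNA1 and EPHA4 lower at -1.32 and -1.25. BTC was dim in both arms, at 4.13 with APC and 2.94 with siRNA. Of 26 NF-kappaB genes 10 were higher and 6 lower (median 0.09): PTGS2 was 1.70, SOD2 1.21 and TNFAIP3 0.71 higher, ICAM1 and NFKBIA lower at -0.98 and -0.50. PTGS2 was dim in both arms, at 4.38 with APC and 2.68 with siRNA. Of 21 chemokines 7 were higher and 8 lower (median -0.04). CCL20 read 8.89 to 9.01 with APC, 6.68 to 6.80 with siRNA and 7.44 to 7.65 in controls (2.20), and CXCL6 and CXCL16 were 2.26 and 1.38 higher. CXCL14 stood at -2.27, with -2.35 on another probe set.

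Of 12 genes of the RNA interference machinery, which both arms engaged through a transfected siRNA, 5 were higher and 4 lower (median 0.03). TNRC6C was 1.30 higher, and DICER1, AGO4, TNRC6B and TNRC6A stood at -0.99, -0.93, -0.67 and -0.55. The label of a colon epithelial line was borne by its markers in both arms. All 6 colon epithelial markers were at or above the median level, with list means of 10.05 to 10.12 across APC arrays and 10.36 to 10.40 across siRNA arrays. Of the 6, 2 were higher and 4 lower with APC (median -0.28). EPCAM and CDX2 were 0.29 and 0.53 higher with APC, and KRT8, KRT18 and VIL1 lower at -0.61, -0.28 and -1.42. The remaining marker, CDH1, was also lower. Of 17 leukocyte markers LAPTM5 (-3.07) and CD14 (-1.15) were lower with APC; LAPTM5 read 6.55 to 6.67 with APC, 9.66 to 9.74 with siRNA and 6.85 to 7.09 in controls. Of 16 fibroblast and endothelial markers RGS5 was 0.93 higher, VWF and TEK were lower at -0.22 and -0.20, and the list's mean level was 4.41 to 4.48 with APC and 4.36 to 4.44 with siRNA.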

How the data were processed

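Human SW480 RNA was hybridised to 16 single-colour Affymetrix arrays, 4 for each of 4 conditions, and groups were taken from the sample labels. The deposited values are log2 expression values made by the authors with RMA, per the submitters' processing notes. RMA subtracts background, equalises the distributions between arrays and summarises probes, which compresses large folds. Levels between 1.80 and 14.56 were used as deposited. Array data give no read depth, so precision rests on how many arrays there are, and the median SE of a difference was 0.09.

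Of 54675 probe sets, 41097 had 1 gene in the platform annotation, 1801 had several and 11777 had none there. Each of 19775 genes was read from its brightest probe set over all arrays. limma 3.58.1 in R 4.3.3 was fitted to all 16 arrays (lmFit and eBayes), with the contrast APC minus beta-catenin siRNA and Benjamini-Hochberg adjustment over all genes. A gene was called at an adjusted p under 0.05; 9375 genes had an unadjusted p under 0.05. All adjusted p-values in the text come from this limma fit. On simulated data the fit was checked for recovery of known changes. Exact two-sided permutation tests compared single values, and 0.0286 is the smallest p that 4 against 4 arrays allow. Deviations of same-letter arrays correlated across genes at 0.246, 0.181, 0.371 and 0.147 for A to D. A with B and C with D deviated together as well, at 0.251 for APC B with siRNA A and 0.225 for APC D with siRNA C. The letters A/B thus parted from C/D, and pairing by single letter was not shown.

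Genes named are the targets, 4 markers, the largest differences overall and by position of the control level (within 0.25, or at least 0.5 away), the 5 largest called members of each of 36 lists, and all members of 3 lists. Members and lists were chosen with earlier results of these data known. Of 1047 list genes, 980 were analysed. Alternatives changed the arrays fitted, the block, the probe set rule, a filter on dim genes, centring, the variance model and an RNA quality covariate, and left out each replicate.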

Additional observations from a re-analysis of the deposited data

Results flagged for a closer look

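In 23 of 516 groups of 4 arrays, 1 array lay far from the other 3 of its group for a named gene; chance alone gives about 5%. Most of these gaps were small on the log2 scale. In the beta-catenin siRNA group, replicate A stood apart for YAP1 (9.84), CSNK1E (7.19) and RASSF4 (7.40), replicate B for PSMB9 (10.03) and CCL20 (6.68), replicate C for HLA-DMA (6.31), SAMD9 (5.87) and SLC2A3 (12.83), and replicate D for IGFBP3 (13.28) and STMN1 (5.95). In the APC group, replicate A stood apart for RASSF4 (5.85), GPX2 (7.53) and BCL9 (6.76), replicate B for RGS5 (4.65), replicate C for PYGO1 (3.39), PTPN14 (10.59), RFXANK (8.80) and SAMD9 (7.07), and replicate D for TMEM117 (5.30), ALCAM (7.77), FGF20 (8.26), HLA-DQB1 (9.67) and DUSP5 (8.65). The widest gaps were those of RGS5, whose other APC arrays averaged 5.39, and STMN1, whose other siRNA arrays averaged 6.64.

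The arrays of cells given TAZ siRNA take no part in the contrast, and 2 of the 4 leading markers were above the control arrays there. HLA-DPA1 averaged 5.31 (5.23 to 5.53) against 4.37 in controls, whose highest array was 4.62. SPARC averaged 7.34 (7.14 to 7.44) against 6.07 in controls, whose highest array was 6.13. Both stayed below the arm in which each was high in the contrast.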

How the results depend on the processing

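Of the 229 called genes named, 179 could be run under all 19 alternative settings, and 159 of these kept their direction and call in each. The other 50 were missing from at least 1 setting and 40 of them kept both in the settings that were run. The number of genes called was 8133 with only the 8 compared arrays, 8994 with the replicate block, 9080 with a block that sets A/B apart from C/D, 8033 of 12828 bright genes, 7917 with the mean of a gene's probe sets, 6255 of 17100 genes without shared probe sets, 8797 after centring, 8356 with a trended variance, 8551 with the ACTB covariate and 7842 to 8052 when 1 replicate was left out. The replicate block changed no call among named genes except that of DVL1, which newly passed. Centring moved the share of higher calls from 48.3% to 58.1%. Genes at least 2-fold lower numbered 424 with the mean of probe sets against 643. List medians moved by more than the spread between replicates in 30 of 36 lists after centring (each by 0.05 or 0.06), 18 with the mean of probe sets, 17 without shared probe sets and 14 among bright genes. Signs turned in the cases that follow, and the cause was not tested except where stated. With the mean of probe sets CSNK1D gave 0.25, FBXW11 0.06, TLE3 -0.02 and the destruction complex list 0.03. Without shared probe sets (suffixes _s_at and _x_at) STMN1 gave -0.31, MAGEC2 0.16, BTG1 0.10 and CXCL14 0.08, each from a probe set that is dim in all groups and so says nothing about the brighter ones, CSNK1D gave 0.69, and the medians of the junction and keratin, stress and chemokine lists 0.01, 0.02 and 0.08. Among bright genes the adherens junction list gave -0.05 and the enterocyte list -0.02, and after centring the microtubule list gave 0.01. The adherens junction median ranged from -0.04 (without siRNA replicate C) to 0.06 as replicates were left out.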
